A study of Mus musculus with 6 samples.

Results

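The voltage-gated and pacemaker ion channels of cultured neonatal mouse cardiomyocytes (CMs) were examined as a set of 57 genes. The set was taken by name and level: protein-coding genes whose symbol begins with Kcn, with Scn or Hcn and a digit, or with Cacn, and whose mean over all libraries was at least 5. Of 20066 genes in the deposited table, 87 carried such a name and 57 reached that level. The study asks whether α-ketoglutarate (αKG), a Krebs cycle intermediate, keeps CMs in a less mature and more proliferative state. Its CMs came from C57BL/6 pups at postnatal days 0–1 with no engineered allele, and each isolation pooled several hearts, so a library is a culture and not an animal. The control group held 3 cultures in DMSO, the solvent, and the treated group held 3 cultures in a cell-permeable form of αKG, for which the labels give 100 µM and 96 h. Cultures were grown on fibronectin and collected whole, without a sort for CMs. The labels do not say whether the 3 cultures of a group were separate isolations, so p-values measure only the spread between these samples, which may be technical.

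Ion channels of these families set the heartbeat. Sodium channels start the action potential of working heart muscle, L-type calcium channels carry the plateau current that triggers contraction, and potassium channels return the membrane to rest. Inward rectifier potassium channels hold the resting potential, and the hyperpolarization-activated (HCN) channels and T-type calcium channels are best known from pacemaker cells. Accessory subunits bring the pore to the membrane or change how fast it opens and closes. Newborn CMs express HCN and T-type channels that adult ventricular muscle has largely lost, and many repolarizing potassium channels gain expression after birth.

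Potassium channels share a short selectivity filter, a glycine-tyrosine-glycine or glycine-phenylalanine-glycine run that lets potassium pass. In the longest coding transcripts of GENCODE M21 (GRCm38), all 28 members that are potassium, HCN or modifier pores held such a filter, 23 with tyrosine and 5 with phenylalanine as the middle residue. Only the first match in each gene was counted. Each *Kcnk* member and *Hcn4* had 2 matches. *Kcnj11* is among those with phenylalanine, and *Hcn4*, *Kcnj5*, *Kcna4* and *Kcnq5* are among those with tyrosine.

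The values are reads per gene that the authors divided by a size factor for each library and rounded, called normalized counts here. Depth, estimated from the spacing of low values, was 3726069 to 4427587 reads in genes per library. αKG replicate 3 stood apart from its group. Over the 57 channel genes, its read counts differed from those of αKG replicates 1 and 2 by a chi-square of 15.3 and 17.6 per gene, against 2.94 between replicates 1 and 2 and 1.37 to 2.26 between DMSO libraries. In 44 of the 57 genes, αKG replicate 3 lay closer to the DMSO mean than to the mean of the other αKG libraries on the log2 scale. That share was not computed for other genes. The separation was not particular to the channels. Across 14953 genes, αKG replicate 3 differed from αKG replicates 1 and 2 by a chi-square of 10 and 9.13 per gene. Between αKG replicates 1 and 2 the value was 1.48 across 14951 genes. Results are therefore given with αKG replicate 3, and for the set and many named genes also without it. That library was picked out from these same values, and leaving out the treated library nearest to DMSO favours calls. Adjusted p-values without it are therefore descriptive only. In that fit 37.2% of all genes were called, beside 3.78% with all 6 libraries. DMSO replicates 2 and 3 could not be told apart from counting noise when 14949 genes were pooled (mean chi-square 1.0, p = 0.492), but 16 single genes differed beyond it at an adjusted p under 0.05, and both were kept as separate samples.

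The cultures were checked against cell type markers. All 14 CM markers were listed, and their summed normalized count was 79174 to 82063 in DMSO and 84459 to 117988 in αKG. Most of that sum was the giant sarcomere protein *Ttn*, with 51569, 54216 and 53157 in DMSO and 80306, 84136 and 55569 in αKG. The median log2 fold change of the CM markers was 0.08, with 3 of 14 higher and 1 (*Pln*) lower in every αKG library. Of these, *Myh7*, the slow myosin heavy chain of fetal ventricle, was called higher (453, 641 and 550 against 2535, 2732 and 1157). Fibroblast markers (10 of 10 listed) summed to 3721 to 3888 in DMSO and to 8269, 8013 and 3724 in αKG replicates 1 to 3, and epicardial markers (10 of 10) to 499 to 525 and to 1276, 1204 and 466. Mural markers (10 of 10) summed to 3982 to 4091 in DMSO and 4564 to 5562 in αKG, with *Cspg4* and *Cnn1* called higher (beside 3.62%). Endothelial markers (10 of 10) summed to 2286 to 2394 in DMSO and 1568 to 1710 in αKG. Of these, 8 were called lower at an adjusted p under 0.05 (beside 1.5%). Macrophage markers (4 of 10 listed, with the defining *Adgre1* and *Ptprc* not among them) summed to 22 to 41, and markers of neurons and Schwann cells (6 of 12, with the defining *Th* not among them) to 109 to 135. The part of these cells in the channel results was not tested. In whole cultures, fewer cells of a type and less RNA per cell cannot be told apart.

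Levels were compared between genes as normalized counts per kilobase of annotated exon, as DMSO means. Among the highest was *Kcng2*, a silent subunit that modifies other potassium channels, at 255.8 per kilobase. *Cacna1c*, the L-type pore of working heart muscle, stood at 183.7 and *Kcnh2*, the pore of the rapid delayed rectifier, at 167.3. The inward rectifiers *Kcnj5* and *Kcnj2* followed at 157.7 and 140.2. By summed normalized count, 5 genes held 55.7% of the reads of the set. At the bottom, *Cacna1s*, the skeletal muscle L-type pore, was the lowest member with a mean of 5.33, and *Kcnip3*, a potassium channel interacting protein, was the highest gene below the limit with a mean of 4.5. The 30 genes below it included *Hcn3*, *Kcna5*, *Kcnj8* and *Scn4a*. For 5 members (*Cacna1s*, *Kcnab1*, *Scn3b*, *Kcnk5* and *Kcna6*) the DMSO mean was under the limit, and they entered through their αKG values.

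**Figure D1:**
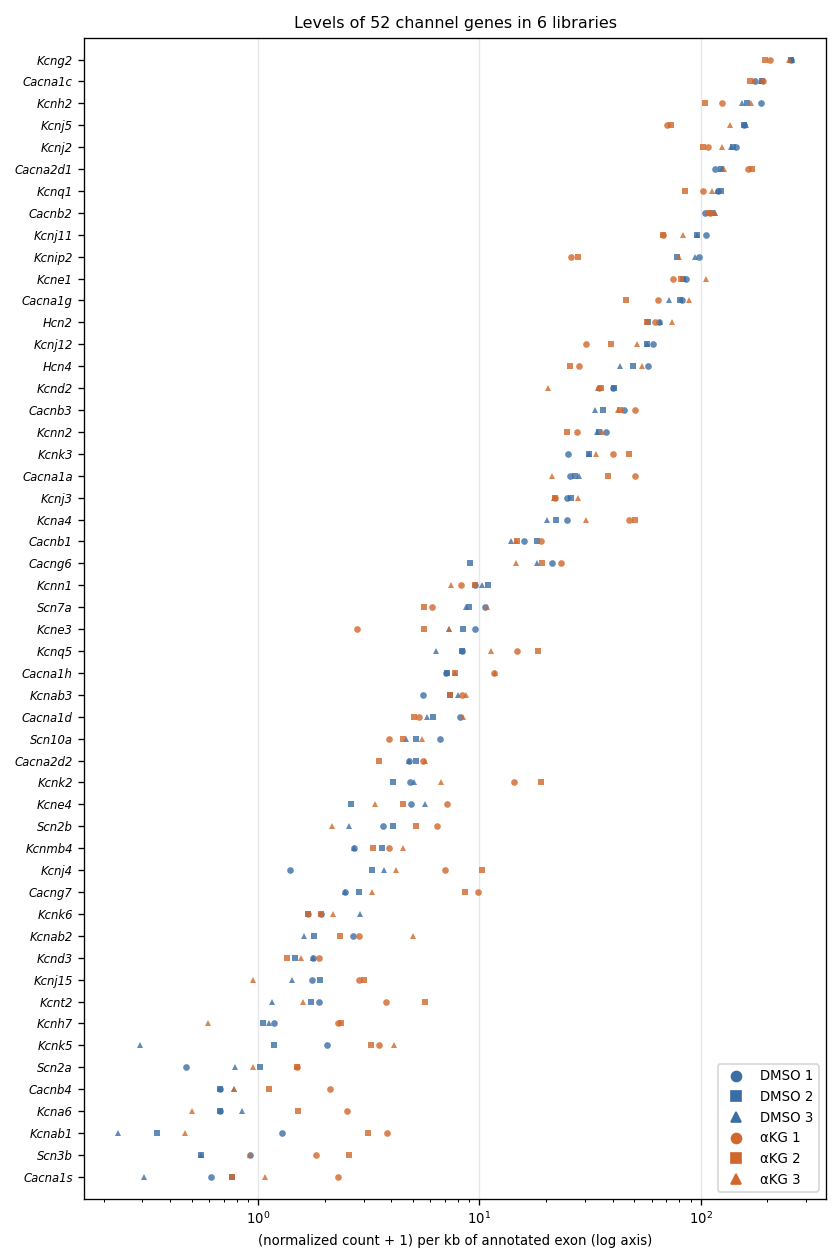
The horizontal log axis gives (normalized count + 1) per kilobase of annotated exon for 52 of the 57 channel genes (rows, ordered by DMSO mean), with 1 point per library in blue for DMSO and orange for αKG. *Kcng2* and *Cacna1c* lie at the top, and the orange circles and squares (αKG replicates 1 and 2) separate from the blue points more widely than the triangles (replicate 3), as in *Kcnip2* and *Kcnk2*.

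Which channel genes differ between αKG and DMSO was tested with limma on log2(value + 1) over the whole table. With Benjamini-Hochberg adjustment, 4 of the 57 channel genes (7.02%) were called at an adjusted p under 0.05, beside 3.78% of all genes and 5.13% of the 12559 protein-coding genes with a mean of at least 5. *Kcna4* and *Kcnq5*, both voltage-gated potassium channels, rose (2 of 57, beside 3.62% of those protein-coding genes), and *Kcnj11* was 1 of the 2 members that fell (beside 1.5%). An unadjusted p under 0.05 was reached by 23 members (40.4%, beside 33.7%). The values of the groups did not overlap in 16 members: 8 were higher in every αKG library (14.0%, beside 14.2%) and 8 lower in every one (14.0%, beside 21.8%). The 23 include *Cacna1s*, *Scn3b* and *Kcnk5*, and the 8 higher include *Kcnk5*. These genes passed the level limit through their αKG values. The median log2 fold change was 0.03 over the members and 0.04 over all genes. By level, 17 of the 25 members whose mean reached 100 had a negative log2 fold change (68.0%, beside 63.1% of protein-coding genes at that level). Of the 19 members with a mean under 20, 16 had a positive one (84.2%, beside 65.5%), but this count includes the 5 members that passed the limit through αKG alone.

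Every one of the 4 calls depended on which libraries entered. Without αKG replicate 3, 29 members were called (50.9%, beside 46.3% of the same protein-coding genes), 14 higher (24.6%, beside 19.1%) and 15 lower (26.3%, beside 27.2%). The 14 include *Kcna6*, *Kcnab1* and *Scn3b*, which passed the level limit through their αKG values. Leaving out any of the other 5 libraries left no member called, where 0 to 152 of all 20066 genes were called (0 to 0.758%). The log2 fold change was then -0.48 to -0.40 for *Kcnj11* (adjusted p = 0.196 to 0.261), 0.76 to 0.98 for *Kcna4* (0.133 to 0.264) and 0.77 to 1.00 for *Kcnq5* (0.145 to 0.259). With DMSO replicates 2 and 3 averaged into 1 sample, 0 members were called by limma and 15 had an unadjusted p under 0.05, where 19 of all genes (0.0947%) were called.

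**Figure D2:**
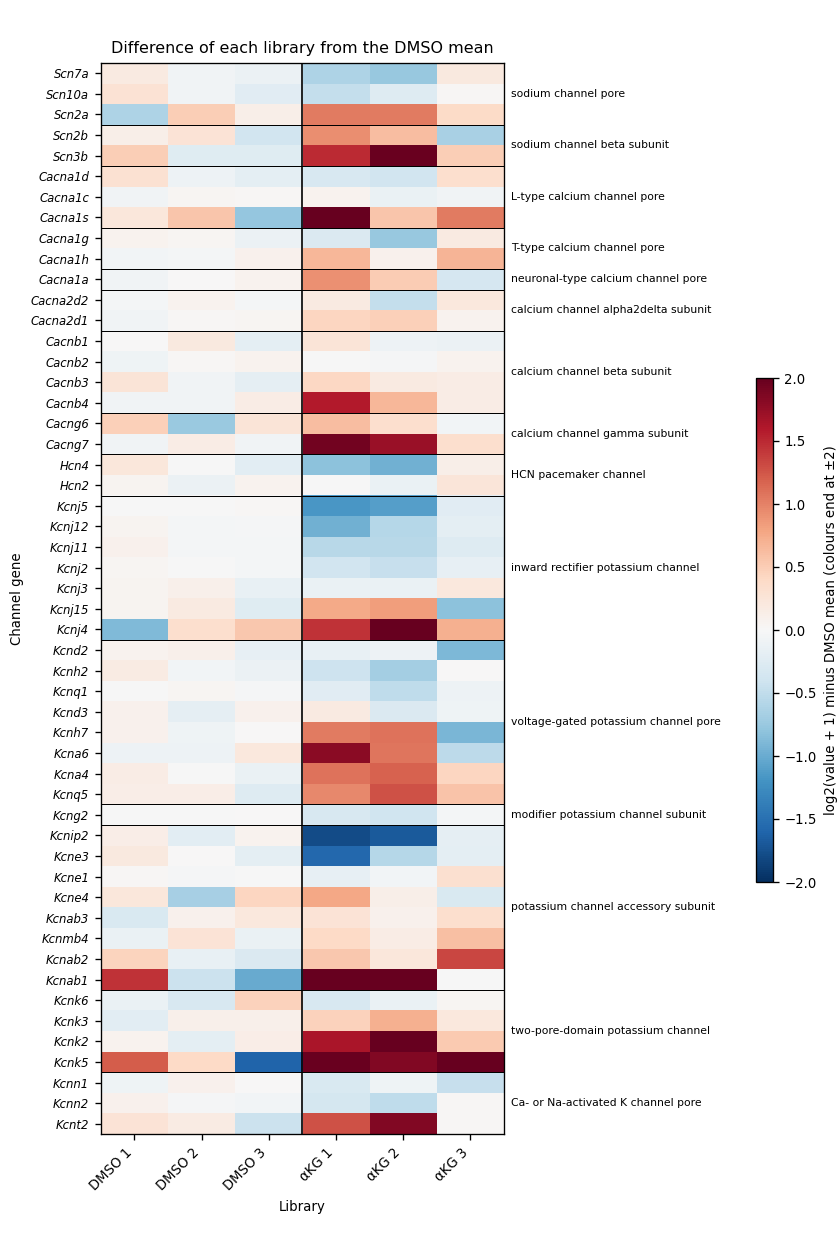
Colours give log2(value + 1) of each library (columns) minus the mean of the DMSO libraries for 52 of the 57 channel genes (rows, grouped by role), red above and blue below that mean, with colours ending at a difference of 2. αKG replicates 1 and 2 lie outside the DMSO range on the same side, in 18 genes above it and in 16 below it, and low genes such as *Kcnk5* and *Kcnab1* also vary between DMSO libraries. The 18 include *Kcnab1*, *Scn3b*, *Kcnk5* and *Kcna6*, which passed the level limit through their αKG values. The matching share over all genes was not computed, so these counts are not read as a trait of the set. By a different measure, limma without αKG replicate 3 called 50.9% of the 57 members and 46.3% of protein-coding genes with a mean of at least 5.

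Of the HCN channels, *Hcn4*, the main channel of the sinus node and of embryonic heart muscle, had 354, 301 and 263 in DMSO and 171, 156 and 331 in αKG. Its αKG replicate 3 lay inside the DMSO range, so the groups overlapped (log2 fold change -0.55 ± 0.25, adjusted p = 0.18). Without that library the value for *Hcn4* was -0.89 (adjusted p = 0.00371). *Hcn2*, the form that prevails in adult ventricle, had 206, 184 and 208 in DMSO and 197, 182 and 236 in αKG, with a log2 fold change of 0.03 and a 95% interval of -0.24 to 0.31. Per kilobase of exon, the DMSO means were 62.4 for *Hcn2* and 50.02 for *Hcn4*.

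Of the 7 inward rectifiers, 4 were lower in every αKG library (beside 21.8% of protein-coding genes), 1 was higher in every one, and 1 fell (beside 1.5%). *Kcnj11* (chr7:46093953-46100764, minus strand) is the pore of the ATP-sensitive channel that links metabolism to excitability. Its counts were 387, 352 and 353 in DMSO and 247, 248 and 305 in αKG, all 3 below the DMSO range (log2 fold change -0.45 ± 0.11, adjusted p = 0.0491). *Kcnj5*, which with *Kcnj3* forms the acetylcholine-gated channel of atrium and sinus node, had 733, 736 and 748 in DMSO and 328, 343 and 633 in αKG. αKG replicates 1 and 2 were far below the narrow DMSO range and replicate 3 less far, and the log2 fold change of -0.83 ± 0.21 missed the threshold (adjusted p = 0.0548). *Kcnj3* itself had 129, 134 and 112 in DMSO and 114, 113 and 144 in αKG, and its groups overlapped. *Kcnj2* and *Kcnj12* encode the classic inward rectifier that sets the resting potential of ventricular muscle. *Kcnj2* had 786, 759 and 744 in DMSO and 584, 554 and 681 with αKG (log2 fold change -0.34 ± 0.09, adjusted p = 0.0592). *Kcnj12* had 167, 156 and 157 in DMSO and 82, 107 and 140 with αKG (log2 fold change -0.57 ± 0.18, adjusted p = 0.0898). Both were lower in every αKG library. Without αKG replicate 3, *Kcnj5* (-1.14, adjusted p = 0.000156), *Kcnj11* (-0.55, 0.002), *Kcnj2* (-0.42, 0.00182) and *Kcnj12* (-0.77, 0.00579) were all called. In that fit 27.2% of protein-coding genes with a mean of at least 5 were called lower. The summed count of the 7 inward rectifiers was 2129 to 2214 in DMSO and 1386, 1404 and 1916 in αKG replicates 1 to 3. *Kcnj4* and *Kcnj15* were low, at 2 to 21 and 5 to 18 normalized counts.

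**Figure D3:**
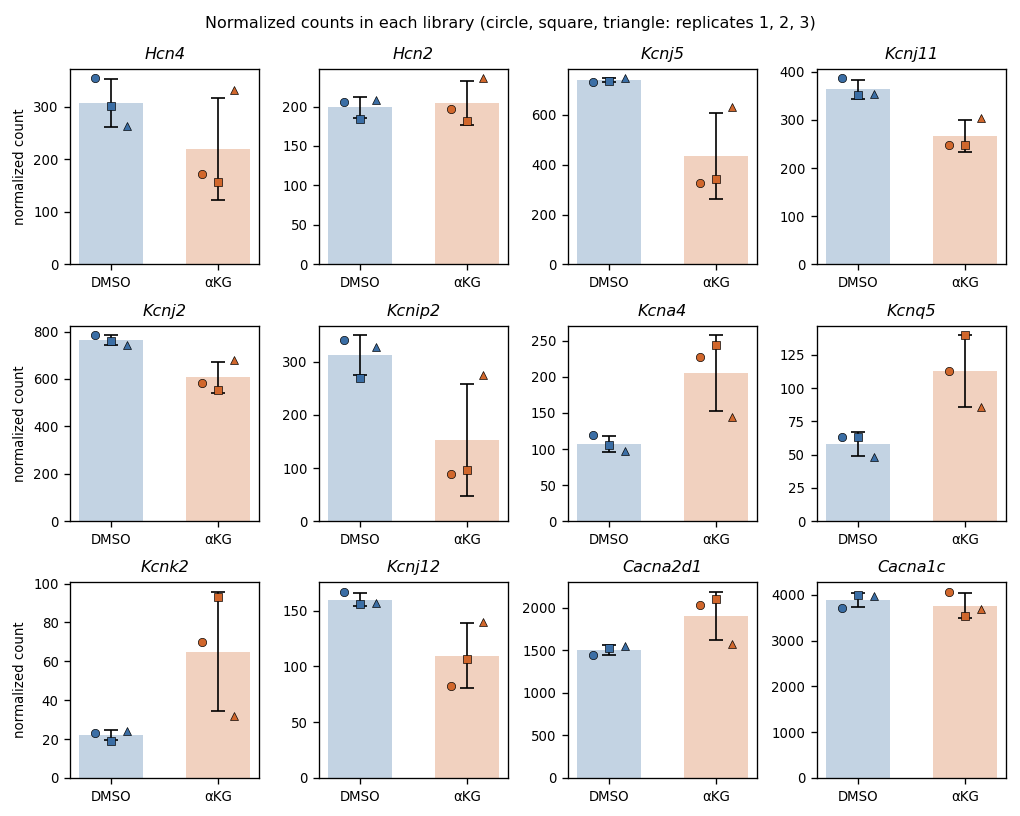
Bars give the group mean of normalized counts on axes that start at 0, whiskers the SD over 3 libraries, and symbols the libraries (circle, square and triangle for replicates 1, 2 and 3). *Kcnj11* is lower and *Kcna4* and *Kcnq5* higher in every αKG library, whereas in *Hcn4* the αKG triangle lies among the DMSO points and *Cacna1c* overlaps throughout.

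Of the 10 voltage-gated potassium pores, 2 rose (beside 3.62%) and none fell (beside 1.5%), and the log2 fold change was negative in 5. *Kcna4* (chr2:107290639-107298502, plus strand) encodes the slowly recovering transient outward current, which is typical of immature CMs. Its counts were 119, 106 and 97 in DMSO and 227, 244 and 145 in αKG, each above the DMSO range (log2 fold change 0.90 ± 0.19, adjusted p = 0.0415). *Kcnq5* (chr1:21398403-21961942, minus strand), a channel of the M-current family known mainly from neurons and smooth muscle, had 63, 63 and 48 in DMSO and 113, 140 and 86 with αKG (log2 fold change 0.93 ± 0.21, adjusted p = 0.0441). In both genes αKG replicate 3 was the lowest of the treated libraries. *Kcnd2* encodes the pore of the fast transient outward current in mouse ventricle, and had 205, 209 and 175 in DMSO and 177, 182 and 104 in αKG. Here it was αKG replicate 3 that lay lowest, and replicates 1 and 2 fell inside the DMSO range (log2 fold change -0.38 ± 0.20, adjusted p = 0.239). *Kcnd3*, its close relative, was low at 12 to 17 in all 6 libraries. *Kcnh2* had 908, 780 and 744 in DMSO and 604, 503 and 816 in αKG. There αKG replicates 1 and 2 lay below the DMSO range and replicate 3 did not (adjusted p = 0.163; without replicate 3, 0.0107). *Kcnq1*, the pore of the slow delayed rectifier, had 490, 504 and 485 in DMSO and 420, 345 and 461 with αKG, lower in every library (log2 fold change -0.28 ± 0.11, adjusted p = 0.13). Without αKG replicate 3 its adjusted p was 0.0181. The gene is overlapped by the antisense transcript *Kcnq1ot1* with a mean of 1192, and whether counting used strand is not stated, so the value of *Kcnq1* is uncertain. *Kcng2* had 763, 760 and 771 in DMSO and 612, 582 and 748 in αKG (adjusted p = 0.129, and 0.00217 without αKG replicate 3). It too is overlapped by genes on the other strand. *Kcnh7* and *Kcna6* are best known from neurons and had 2 to 35 normalized counts. In both of them αKG replicates 1 and 2 lay above the DMSO range, and replicate 3 did not. *Kcnh7*, with a mean of 20.8, is overlapped on the other strand by *Gca* with a mean of 203.8, so its value is uncertain.

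Among accessory subunits of potassium channels, the lowest log2 fold change belonged to *Kcnip2*, the protein that *Kcnd2* channels need for a full transient outward current. Its counts were 341, 270 and 328 in DMSO and 89, 96 and 275 in αKG. αKG replicates 1 and 2 were below the lowest DMSO library and replicate 3 was inside the DMSO range (log2 fold change -1.22 ± 0.35, adjusted p = 0.0774). Without replicate 3 the value was -1.74 (adjusted p = 0.000456). *Kcne1*, the partner of *Kcnq1*, had 276, 267 and 269 in DMSO and 241, 260 and 337 in αKG, with a log2 fold change of 0.03 and a 95% interval of -0.25 to 0.31. *Dpp6*, another partner of the *Kcnd* pores that lies outside the set, was listed at 0 in all DMSO libraries and in αKG replicate 3, and at 32 and 68 in αKG replicates 1 and 2. *Kcnab1*, a cytoplasmic beta subunit, had 10, 2 and 1 in DMSO and 32, 26 and 3 in αKG. The other accessory genes, *Kcne3*, *Kcne4*, *Kcnab2*, *Kcnab3* and *Kcnmb4*, had 4 to 27 in every library. None of the 8 accessory genes was called.

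Tandem-pore potassium channels carry background current. None of the 4 members was called. *Kcnk2*, *Kcnk3* and *Kcnk5* were higher in every αKG library (beside 14.2% of protein-coding genes), but *Kcnk5* passed the level limit through its αKG values. *Kcnk2*, a channel opened by stretch and lipids, had 23, 19 and 24 in DMSO and 70, 93 and 32 with αKG (log2 fold change 1.40 ± 0.36, adjusted p = 0.0579). *Kcnk3*, an acid-sensitive background channel, had 99, 123 and 123 in DMSO and 158, 187 and 133 with αKG (log2 fold change 0.46 ± 0.16, adjusted p = 0.105). *Kcnk5* had 6, 3 and 0 in DMSO and 11, 10 and 13 in αKG. Without αKG replicate 3, *Kcnk2* stood at 1.84 (adjusted p = 0.00156) and *Kcnk3* at 0.58 (adjusted p = 0.0172). The libraries with the highest *Kcnk2*, αKG replicates 1 and 2, were also those with the highest summed fibroblast and epicardial markers. Their part in this value was not tested. *Kcnn2*, a calcium-activated channel of atrial muscle, had 279, 258 and 252 in DMSO and 206, 185 and 266 in αKG (adjusted p = 0.209). Without αKG replicate 3 the adjusted p of *Kcnn2* was 0.00899. Its relative *Kcnn1* had 33 to 49, the sodium-activated *Kcnt2* 7 to 38 and the background channel *Kcnk6* 6 to 11.

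**Figure D4:**
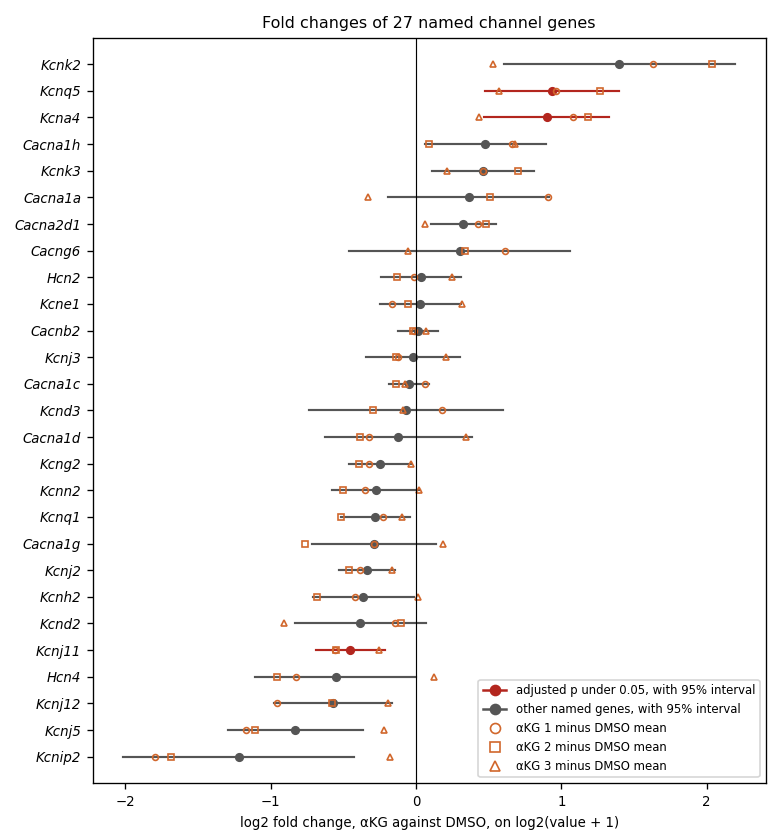
Filled points give the log2 fold change of αKG against DMSO on log2(value + 1) for 27 named genes (rows), lines the 95% interval, red the called genes, and open symbols the difference of each αKG library from the DMSO mean. In *Kcnip2*, αKG replicate 3 (triangle) lies at -0.18 and replicates 1 and 2 at -1.80 and -1.69, and in *Kcnk2* the triangle lies at 0.53 and the others at 1.63 and 2.04.

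Of the sodium channel genes, none was called. *Scn10a*, a sodium channel of sensory neurons, had 52, 40 and 36 in DMSO and 30, 35 and 43 in αKG. *Scn7a*, an atypical sodium channel that senses sodium levels, had 77, 65 and 63 and then 44, 40 and 78. The neuronal pore *Scn2a* and the beta subunits *Scn2b* and *Scn3b* stayed between 2 and 29 in every library.

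No calcium channel gene was called in the main fit. *Cacna1c* had 3711, 3996 and 3970 in DMSO and 4068, 3532 and 3699 in αKG, with a log2 fold change of -0.05 and a 95% interval of -0.19 to 0.09. *Cacnb2*, its main cardiac beta subunit, had 1378, 1491 and 1532 in DMSO and 1453, 1446 and 1539 in αKG, with an interval of -0.13 to 0.15. Both values depended on the processing: removing the trend with GC content and length moved *Cacna1c* to -0.25 (adjusted p = 0.063) and *Cacnb2* to -0.42 (0.0614). *Cacna2d1*, the α2δ subunit that brings the pore to the membrane, had 1441, 1532 and 1549 in DMSO and 2027, 2105 and 1576 in αKG. Every αKG library was above the DMSO range, replicate 3 only just (log2 fold change 0.33 ± 0.10, adjusted p = 0.0859; without it, 0.46 and 0.00115). After the GC and length correction its log2 fold change was 0.0028 (adjusted p = 0.982). *Cacna1d*, the L-type pore of the sinus node and atrium, had 102, 77 and 72 in DMSO and 66, 63 and 105 in αKG. On the other strand it is overlapped by *Dcp1a* with a mean of 366.8, so its value is uncertain. *Cacna1a*, the P/Q-type pore of nerve terminals, had 292, 306 and 320 in DMSO and 574, 436 and 243 in αKG. In that gene αKG replicates 1 and 2 lay above and replicate 3 below all DMSO libraries (adjusted p = 0.356; without replicate 3, 0.00579). *Cacng7* and *Cacng6* are gamma subunits 56.0 kb apart on chromosome 7. *Cacng7* had 5, 6 and 5 in DMSO and 23, 20 and 7 in αKG, and *Cacng6* had 41, 17 and 35 and then 45, 37 and 28. The other beta subunits ranged from 62 to 85 (*Cacnb1*), 133 to 201 (*Cacnb3*) and 5 to 18 (*Cacnb4*), *Cacna2d2* from 27 to 44 and *Cacna1s* from 1 to 14.

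T-type calcium channels exist in a form typical of fetal ventricle, *Cacna1h*, and one that is abundant around birth and in pacemaker tissue, *Cacna1g*. *Cacna1h* had 68, 69 and 75 in DMSO and 112, 75 and 114 with αKG (log2 fold change 0.48 ± 0.19, adjusted p = 0.136). *Cacna1g* had 836, 816 and 729 in DMSO and 648, 467 and 899 with αKG (log2 fold change -0.29, adjusted p = 0.335). Without αKG replicate 3 the log2 fold change was -0.525 for *Cacna1g* (adjusted p = 0.0267) and 0.372 for *Cacna1h* (0.152). The ratio of *Cacna1h* to *Cacna1g* within a library, which does not depend on library scaling, was 0.0813, 0.0846 and 0.103 in DMSO and 0.173, 0.161 and 0.127 in αKG. It was higher in every αKG library, including replicate 3, by 0.77 on the log2 scale (exact permutation test, two-sided p = 0.1, the smallest that 3 against 3 allows; adjusted over 6 pairs, 0.4). The ratio of *Hcn4* to *Hcn2* was 1.72, 1.64 and 1.26 in DMSO and 0.868, 0.857 and 1.40 in αKG, so it overlapped through αKG replicate 3 (exact permutation p = 0.2, adjusted 0.4). *Kcnj12* against *Kcnj2*, *Kcnd3* against *Kcnd2*, *Cacna1d* against *Cacna1c* and the low *Kcnj8* against *Kcnj11* also overlapped between groups (exact permutation p = 0.2, 0.4, 0.7 and 0.3).

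**Figure D5:**
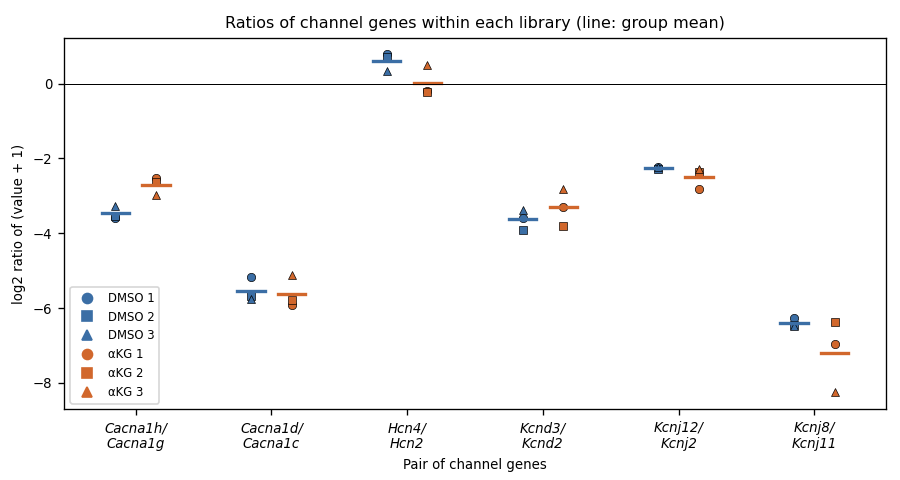
The vertical axis gives the log2 ratio of (value + 1) of a pair of channel genes in each library (symbols) and the group mean (line), blue for DMSO and orange for αKG. The ratio of *Cacna1h* to *Cacna1g* is the pair whose groups do not overlap, with means of -3.47 in DMSO and -2.70 in αKG.

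Channels work with partner proteins, and 46 of 48 listed partners were in the table. Of these, 2 rose and 1 fell, where 3.78% of all genes were called, with a median log2 fold change of 0.06. *Camk2d*, the main cardiac calcium/calmodulin kinase, which phosphorylates sodium and calcium channels, had 1834, 1906 and 1793 in DMSO and 2613, 2705 and 2079 with αKG (log2 fold change 0.41 ± 0.09, adjusted p = 0.0446). The GC and length correction took *Camk2d* to 0.10 (adjusted p = 0.251). *Camk2b*, a form best known from brain, had 98, 93 and 95 in DMSO and 163, 133 and 173 with αKG (log2 fold change 0.70 ± 0.14, adjusted p = 0.0347). *Gpd1l*, a regulator of sodium channel trafficking, had 302, 279 and 302 in DMSO and 207, 206 and 239 with αKG (log2 fold change -0.44 ± 0.10, adjusted p = 0.0459). The call was lost in 11 of 17 alternatives for *Camk2d*, 8 for *Camk2b* and 10 for *Gpd1l*. These alternatives include each library left out and DMSO replicates 2 and 3 averaged, as well as changes in processing. *Abcc9*, the sulfonylurea subunit that joins *Kcnj11* in ventricular muscle, had 2114, 2020 and 2047 in DMSO and 1590, 1495 and 2060 in αKG. Replicate 3 lay inside the DMSO range there, unlike in *Kcnj11*, and αKG replicates 1 and 2 lay below it in both genes. The log2 fold change of *Abcc9* was -0.28 (adjusted p = 0.126), and -0.42 without αKG replicate 3 (adjusted p = 0.00119). *Abcc8*, the alternative subunit, had 432, 369 and 401 and then 529, 449 and 375. *Fgf13*, which binds sodium channels, had 559, 532 and 518 in DMSO and 292, 286 and 478 in αKG (adjusted p = 0.0631).

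Some sequence features of the channel genes, which their names did not select, were set beside those of other genes. Their annotated exons had a median length of 5444 bases, beside 4672 for protein-coding genes at or above the same limit, and a median GC content of 53.1%, beside 49.7%. RefSeq promoter windows (GRCm38.p6, 250 bases before to 50 after a start) were on hand for 40 of the 57 genes, 59 windows in all. The GC box GGGCGG, searched on both strands, was in 50.8% of these windows and in 35.7% of all 32851 windows. The E-box CACGTG was in 8.47% and 7.15%, and the AP-1 motif TGACTCA in 1.69% and 5.2%. Median GC content of the windows was 62.0% for channel genes and 52.7% for all windows. The channel windows belong to genes that passed the level limit, whereas all windows were taken without one. The part of that limit in these differences was not tested. Some genes had several windows, and the AP-1 motif was in 1 channel window.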

How the data were processed

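RNA of 6 cultures was sequenced, 3 with DMSO and 3 with αKG. Per the labels and the study's methods, the authors made stranded total RNA libraries (SMARTer Stranded Total RNA), used Trimmomatic 0.39 for trimming and STAR 2.7.10a for alignment to mm10 (GRCm38.p5), and counted reads that touched an exon with featureCounts 2.0.3, without reads of several genes or places. The deposited values are held as a score: reads that the authors divided by a DESeq2 (1.30.1) size factor per library and rounded, so no count model was run on them.

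All 6 libraries entered 1 limma fit (limma 3.58.1, R 4.3.3) with a variance trend on log2(value + 1), with no filter, and Benjamini-Hochberg adjustment over 20066 genes; a gene is called at an adjusted p under 0.05. The pseudocount understates changes of low genes. SE and intervals come from that fit. Ratios were tested by exact permutation. The fit was tested on simulated data. Estimated reads are values divided by the worth of 1 read, found from the spacing of low values; counting noise covers counting error only.

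Members, gene lists and named genes were chosen with earlier results of these data known. Named are the called members, 25 of 29 listed cardiac channels that are members, the 5 largest changes each way with a mean of at least 20 and no overlap, and the highest gene per role; further genes were named after their values were seen. Exon lengths and GC content came from GENCODE M21, in which 99.0% of genes had the same position. The concentration follows the labels, and the study's methods give another. Alternatives covered the variance trend, pseudocount, filter, scaling, estimated reads with limma-voom, GC and length, a replicate block and each library left out. Some members and some sequences are not reported here.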

Additional observations from a re-analysis of the deposited data

How the results depend on the processing

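The count of 4 called channel genes, beside 3.78% of all genes (shares of all genes called follow in parentheses), was 3 with a pseudocount of 0.5 (3.46%), 4 with one of 5 (4.15%), 4 among genes with a mean of at least 10 (6.5%), 5 after scaling to equal totals (4.56%), and 6 after GC and length correction (6.35%). It was 2 under quantile normalization (3.19%), 1 with limma-voom on estimated reads (1.8%), 0 without the variance trend (0.135%; 14 members at an unadjusted p under 0.05), 0 with DMSO replicates 2 and 3 averaged (0.0947%), and 23 without adjustment. Leaving out 1 library gave 0 to 29 (0 to 37.2%). With the replicate number as a block it was 0 in limma (0.229%; 24 members unadjusted), and 10 with the block and GC and length correction together (2111 of all 20066 genes). Deviations of same-numbered libraries correlated at -0.059, 0.108 and 0.0292. These values cannot settle whether the numbers pair the samples, because αKG replicate 3 dominates the deviations within its group. The GC and length correction moved the median log2 fold change of all genes from 0.04 to -0.08. The causes were not tested.

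Over the alternatives, *Kcna4* lost its call in 9 of 17, *Kcnq5* in 10 and *Kcnj11* in 12, and none of these changed sign. Leaving out 1 library gave the ratio of *Cacna1d* to *Cacna1c* a log2 difference of -0.317 to 0.11, and log2 fold changes of -0.354 to 0.0271 in *Cacna1d*, -0.0315 to 0.0449 in *Cacnb2*, -0.0713 to 0.54 in *Cacng6*, -0.0715 to 0.115 in *Hcn2*, -0.19 to 0.0443 in *Kcnd3*, -0.112 to 0.129 in *Kcne1* and -0.134 to 0.0396 in *Kcnj3*. *Cacnb2* was -0.0116 with equal totals, -0.038 under quantile normalization and -0.415 after GC and length correction (adjusted p = 0.0614, and 0.0256 with the block). Members with values under 20 rest on few reads.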

Other observations

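Of 20 transcription factors of the conduction system and of channel genes, 2 fell (beside 1.5% of protein-coding genes). In every αKG library 11 were lower (beside 21.8%) and 1 was higher (beside 14.2%). Their median log2 fold change was -0.39, beside 0.04 over all genes and -0.03 once genes averaging under 10 were left out. The list was drawn up with earlier results of these data known, so these counts are descriptive only. *Irx3*, which acts in the ventricular conduction system, had 656, 656 and 697 in DMSO and 406, 418 and 547 with αKG (limma, log2 fold change -0.56 ± 0.11, adjusted p = 0.036). *Tbx3*, a repressor of the working muscle programme in the conduction system, had 117, 108 and 104 in DMSO and 60, 65 and 79 with αKG (log2 fold change -0.69 ± 0.16, adjusted p = 0.0451). Of the 17 alternatives, which include each library left out, *Irx3* lost its call in 8 and *Tbx3* in 9. *Irx5*, which represses *Kcnd2* in the inner ventricular wall, had 166, 180 and 187 and then 66, 75 and 160 (adjusted p = 0.0825). *Hey2*, a factor of compact ventricular muscle, had 399, 340 and 332 and then 164, 136 and 338, so its αKG replicate 3 was inside the DMSO range. *Mef2c* (1249, 1135 and 1123 against 1106, 1141 and 1182) overlapped between the groups. No test linked these factors to the channel genes.

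Among channel genes below the level limit, *Kcnj8*, the pore of the vascular ATP-sensitive channel, had 4, 3 and 3 in DMSO and 1, 2 and 0 in αKG, and *Kcnn3* had 1, 2 and 0 in DMSO and 8, 4 and 0 in αKG. Neither was called, and values of this size rest on a few reads each.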
